A study of Mus musculus with 24 samples.

Results

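The nuclear genes that encode the subunits of the mitochondrial respiratory chain were followed in whole mouse lung through the first weeks of life. Members were chosen by gene symbol alone, as the array rows annotated to exactly 1 gene whose symbol begins with Nduf and a subunit letter and number, Sdha to Sdhd, Uqcr, Cox4 to Cox8, or Atp5, with pseudogenes left out. This gave 81 genes of the 19938 genes with a row of their own, from 105 rows, and for the 16 genes with several rows the row with the highest mean over all arrays stood for the gene. Of these, 33 belong to complex I (NADH dehydrogenase), 4 to complex II (succinate dehydrogenase), 8 to complex III (cytochrome bc1), 19 to complex IV (cytochrome c oxidase) and 17 to complex V (ATP synthase). None of the 13 subunits encoded by mitochondrial DNA had a row used here. All 81 members were tested, since no filter on low values was applied. Only *Cox8c* had no group mean above 5 on the log2 scale (highest 4.09).

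RNA came from the left lung lobe of male C57BL/6N Tac mice kept free of specific pathogens and given no treatment, either wild type (WT) or transgenic for *Scnn1b* (*Scnn1b*-Tg), at postnatal day (PND) 0, 3, 10 and 42. The WT mice were littermates. The transgene makes airway club cells overproduce the beta subunit of the epithelial sodium channel, so that the airway surface dries and mucus stalls, while the other cell types of the lobe carry the transgene without being its target. There were 8 groups with n = 3 Affymetrix Mouse Gene 1.0 ST arrays each, 24 arrays in all, and each array held pooled RNA (from 3 mice per the methods, whereas the labels list 2 animals, or only 1 in the case of the third adult *Scnn1b*-Tg array). Values are log2 signals, and differences are log2 changes with the standard error (SE) from limma. A member is said to have passed when its p, adjusted by Benjamini-Hochberg over all 21789 rows that name 1 gene, was 0.05 or less, and to have been called when it also changed at least 2-fold. In bulk tissue, fewer cells of a type and less RNA per cell cannot be told apart.

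*Scnn1b* itself lay between 9.62 and 10.94 in the *Scnn1b*-Tg arrays and between 6.37 and 8.22 in the WT arrays, without overlap. Lung markers (*Sftpc*, *Sftpb*, *Ager*, *Scgb1a1*, *Foxj1* and *Pecam1*) were present throughout, with a mean level per array between 10.02 and 10.87. Some arrays stood apart. The mean of 11 skeletal muscle genes was 6.30 and 5.71 in *Scnn1b*-Tg PND 10 replicates 1 and 2 and 5.45 in WT PND 3 replicate 3, against 4.32 to 4.79 in the other 21 arrays. *Ppargc1a*, a coactivator of mitochondrial genes, was at 8.62 in WT PND 0 replicate 1 against 6.74 and 6.30 in the other WT arrays of that age. Some of the counts and members below are also given without these arrays.

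The respiratory chain carries electrons from NADH (complex I) and succinate (complex II) through complexes III and IV to oxygen, and the proton gradient built on the way drives ATP synthesis in complex V. Each complex joins a few catalytic subunits with many small accessory subunits, and in complex IV some subunits exist as alternative isoforms made mainly in heart, skeletal muscle, testis or lung. At birth the lung begins to breathe air, and in the mouse its alveoli form during the following weeks, while cells divide rapidly and then come to rest.

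Promoters are shown for the 4 members with the largest rise between birth and PND 3 in WT lungs, and for *Sdha*, which moved the other way. Each line gives the 150 bases before the transcription start, 5′ to 3′ on the gene's strand, from RefSeq (GRCm38.p6). Capitals mark a match of the palindromic NRF1 site (its letters are the capitals in the *Ndufa11* line), CCGGAAG (the core of ETS factors such as GABPA), AAGATGGC (YY1) or AAGGTCA (estrogen-related receptors) on either strand. These factors are known regulators of nuclear genes for mitochondria.
Atp5e, chr2:174464102-174464251, minus strand: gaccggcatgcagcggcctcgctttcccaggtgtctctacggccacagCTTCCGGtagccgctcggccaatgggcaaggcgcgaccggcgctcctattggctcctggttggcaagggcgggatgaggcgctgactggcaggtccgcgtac
Ndufa11, chr17:56717612-56717761, plus strand: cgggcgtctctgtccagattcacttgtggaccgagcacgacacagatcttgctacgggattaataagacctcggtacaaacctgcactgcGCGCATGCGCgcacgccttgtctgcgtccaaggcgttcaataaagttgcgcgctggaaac
Ndufb8, chr19:44555443-44555592, minus strand: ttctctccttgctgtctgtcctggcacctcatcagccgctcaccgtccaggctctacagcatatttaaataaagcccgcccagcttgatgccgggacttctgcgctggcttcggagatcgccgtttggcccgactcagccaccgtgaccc
Uqcr11, chr10:80406822-80406971, minus strand: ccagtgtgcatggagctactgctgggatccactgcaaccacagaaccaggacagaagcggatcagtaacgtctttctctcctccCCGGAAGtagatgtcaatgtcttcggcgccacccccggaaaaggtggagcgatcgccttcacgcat
Sdha, chr13:74350241-74350390, minus strand: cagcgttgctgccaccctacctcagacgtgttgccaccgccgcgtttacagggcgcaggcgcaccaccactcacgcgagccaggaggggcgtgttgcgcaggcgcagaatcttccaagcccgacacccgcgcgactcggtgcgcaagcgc
The *Ndufa11* window holds the NRF1 letters, the *Atp5e* and *Uqcr11* windows hold the ETS letters, and the *Ndufb8* and *Sdha* windows hold none of these motifs, although the full 300-base promoter of *Ndufb8* holds the YY1 letters and that of *Atp5e* also AAGGTCA, outside the lines printed here. Promoters of 300 bases (250 before and 50 after the start) were found for 66 of the 81 members, 71 promoters in all. The NRF1 letters occurred in 5 of these 71 (7.0%), against 0.97% of all 32851 promoters of the same length. The ETS letters occurred in 17 (23.9%) against 8.86%, the YY1 letters in 10 (14.1%) against 2.75%, and the AAGGTCA letters in 7 (9.9%) against 4.72%. The TATA letters TATAAA occurred in 9 (12.7%) against 13.62%. The 17 genes with the ETS letters had a median log2 change of 0.99 between birth and PND 3 in WT lungs and the 49 without them 0.73. The same medians were 1.16 and 0.85 for NRF1, 0.75 and 0.85 for YY1, 0.92 and 0.75 for AAGGTCA and 0.89 and 0.80 for TATAAA, all as a description with no test.

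Most members passed higher within 3 days of birth (67 of 81 in WT and 70 in *Scnn1b*-Tg). Few passed between PND 3 and PND 10, and most passed lower between PND 10 and PND 42 (63 and 67). In the first interval 3 members in WT and 2 in *Scnn1b*-Tg passed lower. The mean of the 81 members was 8.02, 8.05 and 7.94 in the WT PND 0 arrays. It was 8.82, 8.73 and 8.75 at PND 3, then 8.70, 8.62 and 8.71 at PND 10, and 8.16, 7.93 and 8.23 at PND 42. All 6 arrays of PND 3 and PND 10 lay above all 6 of PND 0 and PND 42. In *Scnn1b*-Tg lungs the mean was 7.95, 7.79 and 7.83 at PND 0 and 8.64, 8.69 and 8.69 at PND 3. It was 8.68, 8.79 and 8.65 at PND 10 and 7.93, 8.26 and 8.08 at PND 42, again without overlap between the high and the low ages. The spread between arrays was widest at PND 42 (SD 0.15 in WT and 0.16 in *Scnn1b*-Tg, against 0.03 to 0.09 at the other ages).

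**Figure D1:**
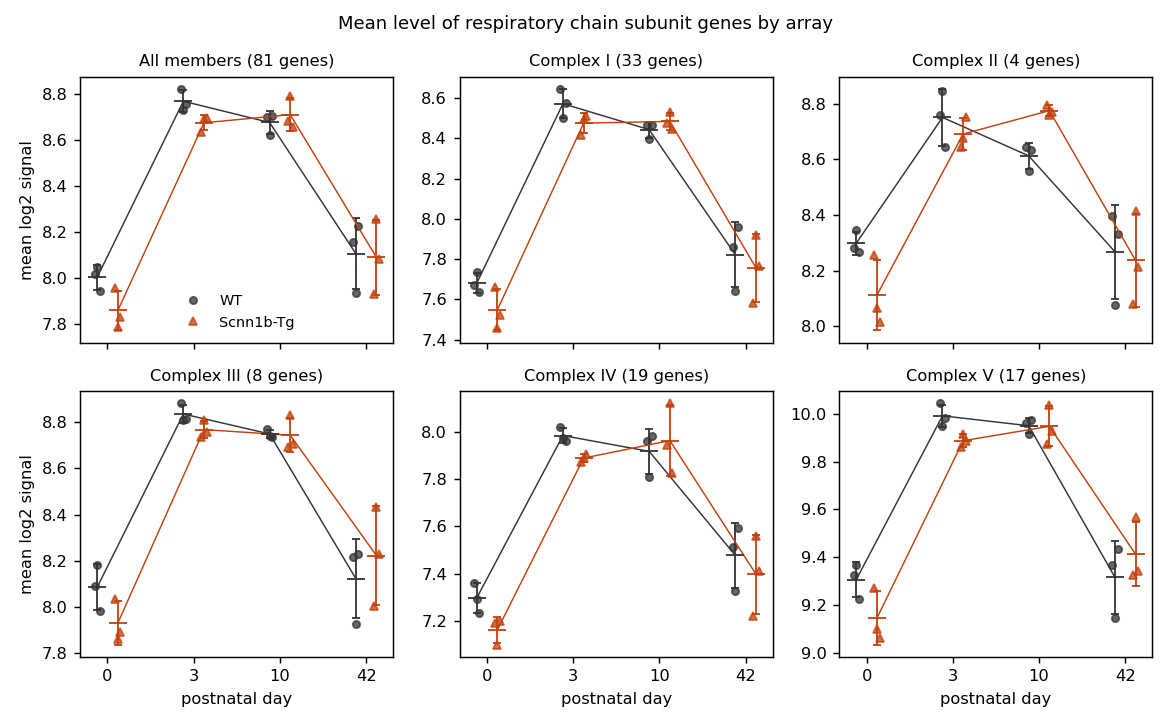
Mean log2 signal (vertical axis) of all members and of each complex on each array, by postnatal day (horizontal axis) for WT (grey circles) and *Scnn1b*-Tg (orange triangles); bars show the mean and SD of 3 arrays and lines join the means. The mean of all 81 members rose from 8.002 to 8.77 in WT and from 7.86 to 8.67 in *Scnn1b*-Tg between PND 0 and PND 3, and complexes I to V show the same course.

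From PND 0 to PND 3, 25 of the 81 members were called higher in WT lungs (30.9%, where 1.96% of all rows were called higher) and none was called lower (7.79% of all rows). Counted by adjusted p alone, 67 members passed higher (21.7% of all rows) and 3 lower (24.9% of all rows). The median change of the members was 0.75, and that of all rows was 0.06. Subtracting each array's median moved the median of all genes in this comparison to 0.24 and that of the members to 0.92, so the members stood above all genes under both scalings. Under that scaling 73 members passed higher and 1 lower in WT, with no share of all rows to set beside them. Without WT PND 0 replicate 1, 26 members were called higher in WT, and 68 passed higher and 2 lower. In 71 members all 3 PND 3 arrays lay above all 3 PND 0 arrays (32.5% of all rows). In *Scnn1b*-Tg lungs 30 members were called higher (37.0%, against 2.26% of all rows), none was called lower (8% of all rows), 70 passed higher (24.8% of all rows) and 2 lower (24.6%), and the median was 0.81 against 0.07 for all rows. The 23 genes called in both genotypes were 92.0% of the WT and 76.7% of the *Scnn1b*-Tg calls. The only genes called in WT alone were *Ndufa5* and *Ndufs4*, with 0.96 and 0.97 in *Scnn1b*-Tg, just under the 2-fold threshold. The 7 called in *Scnn1b*-Tg alone were *Atp5j2*, *Atp5l*, *Cox7a1*, *Ndufa1*, *Ndufa12*, *Ndufb5* and *Sdhd*, at 0.85 to 0.99 in WT. The difference of this change between genotypes passed for 0 of the 81 members in limma (lowest adjusted p 0.998; 1 member had an unadjusted p of at most 0.05).

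Between PND 3 and PND 10, 0 members were called in either genotype (1.29% of all rows in WT and 1.09% in *Scnn1b*-Tg were called in either direction). The median change was −0.11 in WT, where 19 of the 81 members were higher, and 0.02 in *Scnn1b*-Tg, where 50 were. For all rows it was −0.01 in both. The WT set mean was 8.73 to 8.82 at PND 3 and slightly lower, at 8.62 to 8.71, at PND 10. At the adjusted p alone, 3.56% of all rows passed higher and 1.47% lower in WT, and 2.09% and 1.18% in *Scnn1b*-Tg. The members that passed were *Ndufv3* in WT, which rose by 0.46 (SE 0.12, adjusted p = 0.0261), and *Atp5g1* and *Cox7a2l* in *Scnn1b*-Tg. *Atp5g1*, a gene of the rotor ring of ATP synthase, rose by 0.46 (SE 0.11, adjusted p = 0.022), and *Cox7a2l*, a factor that joins complexes III and IV into supercomplexes, fell by 0.49 (SE 0.12, adjusted p = 0.0287). All 3 lost their pass under some alternatives. With only the arrays of the compared groups in the fit, adjusted p was 0.0963 for *Ndufv3*, 0.061 for *Atp5g1* and 0.0819 for *Cox7a2l*, and with the mean of the gene's rows *Atp5g1* changed by 0.32 (adjusted p = 0.223) and *Cox7a2l* by −0.43 (adjusted p = 0.0873). Each also no longer passed on leaving out single arrays, with adjusted p up to 0.153 for *Ndufv3*, 0.136 for *Atp5g1* and 0.179 for *Cox7a2l*. Without *Scnn1b*-Tg PND 10 replicate 3, 1 member was called in *Scnn1b*-Tg, *Cox8b*, at 1.46 (SE 0.32, adjusted p = 0.0245), from the 2 arrays high in skeletal muscle genes.

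From PND 10 to PND 42, 7 members were called lower in WT lungs (3.84% of all rows were called lower) and none higher (1.7% of all rows). By adjusted p alone 63 passed lower (20.7% of all rows) and 2 higher (9.74%), and the median change was −0.58 against −0.03 for all rows. In *Scnn1b*-Tg lungs 7 were also called lower (3.38% of all rows) and none higher (1.79%), 67 passed lower (19.4%) and 1 higher (10.4%), and the median was −0.64 against −0.02. The genes called lower in both were *Ndufa11*, *Ndufa4l2*, *Ndufb8* and *Ndufb9*, 57.1% of each list. *Atp5l*, *Atp5mpl* and *Uqcr11* were called in WT alone and *Cox8b*, *Ndufb7* and *Ndufs8* in *Scnn1b*-Tg alone. The counts moved with single arrays. In WT, 11 were called without PND 42 replicate 1, 3 without replicate 2 and 11 without replicate 3. In *Scnn1b*-Tg, 13 were called without PND 10 replicate 3 or without PND 42 replicate 2, and 5 without both PND 10 arrays that were high in skeletal muscle genes. Without those 2 arrays 42 members passed lower in *Scnn1b*-Tg in place of 67, with a median of −0.58.

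Of the 25 genes called higher at PND 3 in WT, all 25 were lower at PND 42 than at PND 10, 23 of them past the adjusted p, and of the 30 in *Scnn1b*-Tg all 30 were lower, 28 past it. How far the members returned depended on the scaling. Between PND 0 and PND 42, 0 members were called in WT (11.4% of all rows in either direction), with 14 passing higher (23% of all rows) and 9 lower (33.3%). Without WT PND 0 replicate 1, 9 members passed higher and 6 lower in WT. In *Scnn1b*-Tg 1 member was called higher (2.48% of all rows, and 11.2% in either direction), which was *Atp5e*, with 28 passing higher (22.6% of all rows) and 2 lower (31.1%). The median change was 0.12 in WT and 0.24 in *Scnn1b*-Tg, but with quantile normalization repeated it was 0.49 in both, with 52 members passing higher in WT and 56 in *Scnn1b*-Tg. With array medians subtracted it was 0.35 and 0.43, with 49 and 51 passing higher. Subtracting medians also moved the median of all rows, to 0.2 in WT and 0.18 in *Scnn1b*-Tg. With quantile normalization repeated the median of all rows was 0.015 and 0.005. The shares of all rows that passed under these scalings are not given here. In the values as deposited *Atp5e* remained 0.86 above the PND 0 level in WT and 1.31 above it in *Scnn1b*-Tg, and *Cox6a1*, the common form of a small cytochrome oxidase subunit, 0.88 and 0.71. Across the 81 members the change from PND 0 to PND 3 and the change from PND 10 to PND 42 had a Pearson r of −0.65 in WT and −0.68 in *Scnn1b*-Tg (all genes −0.15 and −0.23). These r values are a description across genes, which share the same arrays.

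**Figure D2:**
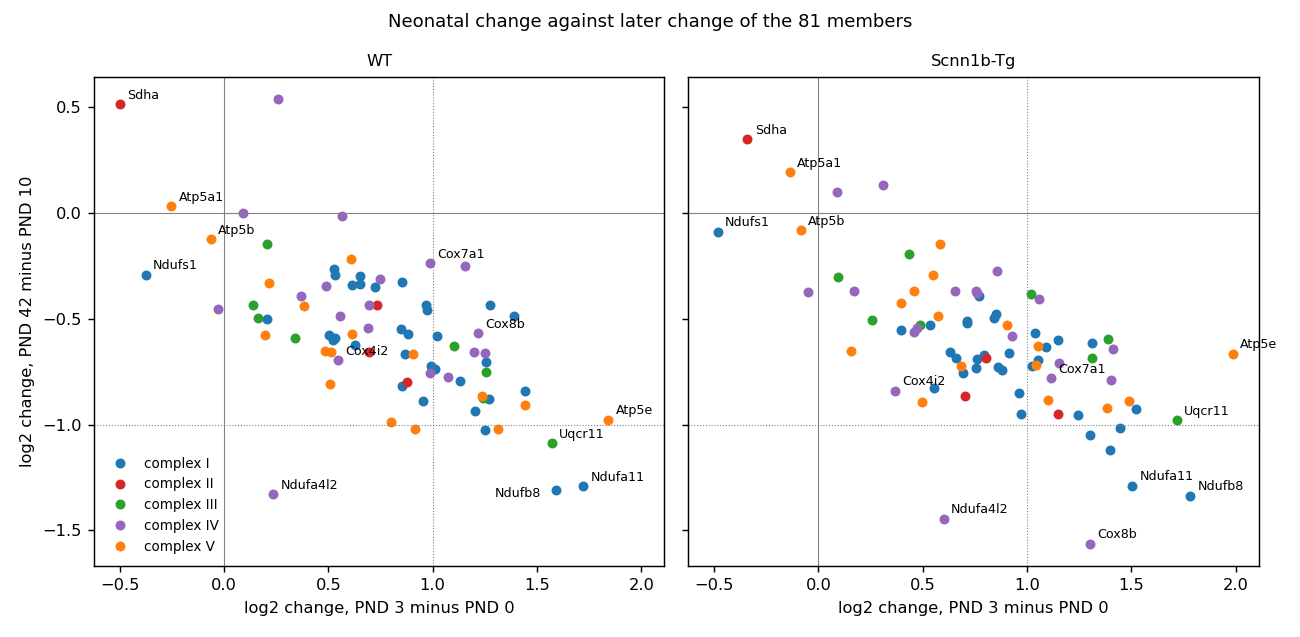
Log2 change from PND 0 to PND 3 (horizontal axis) against that from PND 10 to PND 42 (vertical axis) for each of the 81 members, in WT (left) and *Scnn1b*-Tg (right), coloured by complex; dotted lines mark a 2-fold change. *Ndufb8* and *Ndufa11* lie at the lower right in both panels, and *Sdha* is at the upper left (−0.50 and 0.51 in WT, −0.34 and 0.35 in *Scnn1b*-Tg).

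Complex I had 12 of its 33 members called higher between birth and PND 3 in WT and 13 in *Scnn1b*-Tg, with medians of 0.88 in both. *Ndufb8*, a small subunit of the membrane arm that is lost early when complex I fails to assemble, was at 6.35, 6.58 and 6.33 in WT PND 0 arrays and 8.11, 7.84 and 8.08 at PND 3. It was at 7.74, 7.68 and 7.77 at PND 10 and 6.32, 6.19 and 6.75 at PND 42. The PND 42 arrays covered the newborn range, and both were far below the 6 arrays between. *Ndufb8* rose by 1.59 (SE 0.16, adjusted p = 9.26e-08) and later fell by 1.31 (SE 0.16, adjusted p = 2.53e-06). In *Scnn1b*-Tg lungs it was at 6.38, 6.05 and 6.18, then 7.95, 7.96 and 8.05, then 7.75, 7.87 and 7.67, and at last 5.96, 6.64 and 6.68. It rose by 1.78 (SE 0.16, adjusted p = 1.63e-08) and fell by 1.34 (SE 0.16, adjusted p = 2.2e-06).

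*Ndufa11*, an accessory subunit at the junction of the membrane arm, had the highest rise of complex I in WT. Its WT levels were 7.12, 7.30 and 7.16 at PND 0, 8.95, 8.77 and 9.02 at PND 3, 8.80, 8.73 and 8.90 at PND 10, and 7.55, 7.11 and 7.89 at PND 42. The PND 3 and PND 10 arrays did not overlap the others. It rose by 1.72 (SE 0.16, adjusted p = 5.89e-08) and fell by 1.29 (SE 0.16, adjusted p = 4.72e-06). A dimmer row of this gene gave 1.36 and −0.62, so that its rise was called by both rows and its fall by 1. The 9 measured subunits of the Ndufb group had a WT median rise of 0.99, and all 9 passed. The other 18 accessory subunits, *Ndufa11* among them, had a median of 0.91, with 17 passing. This split goes by symbol and does not separate the membrane arm from the rest.

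Most of the 6 measured core subunits of complex I carry the flavin or iron-sulfur clusters. From PND 0 to PND 3, 5 of them passed higher and 1 lower in each genotype. *Ndufs8* rose by 1.27 in WT, whereas *Ndufs1*, the gene of the largest subunit and its chain of iron-sulfur clusters, fell. *Ndufs1* was at 7.99, 8.08 and 7.94 in WT at PND 0, 7.59, 7.68 and 7.62 at PND 3, 7.53, 7.45 and 7.55 at PND 10, and 7.16, 7.19 and 7.32 at PND 42. All 9 later arrays lay below the newborn range, and the 3 adult arrays were the lowest of all WT arrays. It fell by 0.38 to PND 3 (SE 0.10, adjusted p = 0.00406) and by 0.78 over the whole period (SE 0.10, adjusted p = 1.49e-06). In *Scnn1b*-Tg it fell by 0.48 to PND 3 (SE 0.10, adjusted p = 0.000442) and by 0.50 to PND 42 (SE 0.10, adjusted p = 0.000292). These changes of *Ndufs1* depended on the scaling. The WT change to PND 3 was −0.13 with quantile normalization repeated (adjusted p = 0.252) and −0.20 with array medians subtracted (adjusted p = 0.0663), and the *Scnn1b*-Tg change to PND 42 was −0.06 with quantile normalization repeated (adjusted p = 0.628).

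Complex II passes electrons from succinate to ubiquinone and is also an enzyme of the citric acid cycle. Its 4 genes split into 3 that rose and 1 that fell. *Sdhb*, the iron-sulfur subunit, rose by 0.70 in both genotypes (SE 0.13, adjusted p = 0.000173 in WT and 0.00015 in *Scnn1b*-Tg). The membrane anchors *Sdhc* and *Sdhd* rose by 0.73 and 0.88 in WT and by 0.81 and 1.15 in *Scnn1b*-Tg, where *Sdhd* was called. *Sdha*, the flavoprotein that holds the catalytic site, was at 9.20, 9.36 and 9.42 at PND 0 in WT, 8.84, 8.97 and 8.69 at PND 3, 8.89, 8.90 and 8.87 at PND 10, and 9.41, 9.36 and 9.44 at PND 42. Here the PND 3 and PND 10 arrays were the low ones, all below the 6 arrays of the first and last age. *Sdha* fell by 0.50 (SE 0.11, adjusted p = 0.000966) and then rose by 0.51 (SE 0.11, adjusted p = 0.00125). In *Scnn1b*-Tg it fell by 0.34 (SE 0.11, adjusted p = 0.0154) and rose by 0.35 (SE 0.11, adjusted p = 0.0214), but at PND 10 replicate 3 stood at 9.26 against 8.96 and 8.88. Without replicates 1 and 2 of that group the later change of *Sdha* was 0.12 (adjusted p = 0.653). With array medians subtracted its first change in *Scnn1b*-Tg was −0.19 (adjusted p = 0.109).

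Complex III takes electrons from ubiquinol to cytochrome c. Its 5 small subunits had a WT median rise of 1.24, with 4 called, and its core and Rieske proteins (*Uqcrc1*, *Uqcrc2* and *Uqcrfs1*) a median of 0.21 with none called. *Uqcr11*, a small subunit, was at 6.04, 6.28 and 6.01 at PND 0 in WT and 7.65, 7.67 and 7.73 at PND 3. It stood at 7.53, 7.67 and 7.41 at PND 10 and at 6.85, 5.84 and 6.64 at PND 42. The adult arrays ranged over a full log2 unit, with replicate 2 below the newborn arrays and the other two above them. *Uqcr11* rose by 1.57 in WT (SE 0.19, adjusted p = 7.45e-07) and by 1.72 in *Scnn1b*-Tg (SE 0.19, adjusted p = 1.94e-07). The later fall was 1.09 in WT (SE 0.19, adjusted p = 0.000118) and 0.98 in *Scnn1b*-Tg (SE 0.19, adjusted p = 0.000346), where it was −0.74 without the 2 muscle-rich PND 10 arrays (adjusted p = 0.0572). *Uqcrb*, another small subunit, had 0.14 and 0.09 in the neonatal interval by its brightest row, which passed in neither genotype. Its 3 rows gave 0.139 to 0.408 in WT and 0.095 to 0.312 in *Scnn1b*-Tg, and none was called.

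Complex IV reduces oxygen, and its 19 members include common subunits, alternative isoforms and the related genes *Ndufa4* and *Ndufa4l2*, whose names come from complex I. Of the 9 common subunits 8 passed higher at PND 3 in WT, and of the 7 isoforms 5 passed. *Cox4i1*, the common form of subunit 4, was at 9.38, 9.62 and 9.22 at PND 0 and 10.44, 10.47 and 10.54 at PND 3 in WT. It rose by 1.07 (SE 0.16, adjusted p = 1.34e-05), and by 1.41 in *Scnn1b*-Tg (SE 0.16, adjusted p = 3.9e-07). *Cox4i2*, the form known from lung and regulated by oxygen, was at 6.601, 6.91 and 6.87 and then 7.36, 7.25 and 7.39 in WT. It rose by 0.54 in WT (SE 0.11, adjusted p = 0.000482) and by 0.37 in *Scnn1b*-Tg (SE 0.11, adjusted p = 0.0106). Both forms fell from PND 10 to PND 42, *Cox4i1* by 0.78 and 0.64 and *Cox4i2* by 0.70 and 0.84 in WT and *Scnn1b*-Tg. Without the 2 muscle-rich arrays the *Scnn1b*-Tg change of *Cox4i1* was −0.56 (adjusted p = 0.114).

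*Ndufa4*, a common subunit of complex IV, rose by 1.20 in WT (SE 0.17, adjusted p = 6.43e-06). The neonatal change of *Ndufa4l2*, a relative known to be induced by hypoxia, did not pass in WT over all arrays. *Ndufa4l2* was at 7.25, 6.15 and 6.07 at PND 0 in WT, 6.67, 6.82 and 6.69 at PND 3, 6.76, 6.96 and 6.79 at PND 10, and 5.62, 5.04 and 5.87 at PND 42. Its first newborn array, the one high in *Ppargc1a*, lay above every other WT array, and the other two lay below PND 3. The neonatal change was 0.23 in WT (SE 0.24, adjusted p = 0.435) and 0.60 in *Scnn1b*-Tg (SE 0.24, adjusted p = 0.0445). Without that first newborn array the WT change was 0.62 (SE 0.20, adjusted p = 0.0196). The *Scnn1b*-Tg change no longer passed on leaving out any of 4 *Scnn1b*-Tg arrays of PND 0 or PND 3 (PND 0 replicates 2 and 3, PND 3 replicates 2 and 3), with adjusted p of 0.108 to 0.143. The fall to PND 42 was 1.33 in WT (SE 0.24, adjusted p = 0.000234) and 1.45 in *Scnn1b*-Tg (SE 0.24, adjusted p = 0.000104), where the levels were 6.63, 6.995 and 6.62 and then 5.36, 5.52 and 5.03.

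Of the forms of complex IV made mainly in heart and skeletal muscle, *Cox8b* varied most between arrays of a group. It was at 4.29, 4.54 and 4.33 in WT at PND 0, 5.68, 5.96 and 5.19 at PND 3, 5.96, 4.57 and 5.95 at PND 10, and 5.08, 4.85 and 4.84 at PND 42. In *Scnn1b*-Tg it was at 3.89, 4.16 and 4.59, then 5.23, 5.55 and 5.77, then 6.71, 7.24 and 4.996, and at last 4.45, 5.06 and 4.75. The pair of high PND 10 arrays are those high in skeletal muscle genes, in which *Acta1* stood at 9.18 and 8.34 against 5.81 in the third. The low WT PND 10 array, replicate 2, had a mean of 5.72 over 12 cardiac muscle genes against 6.77 and 6.37 in the other two. *Cox8b* rose by 1.22 in WT (SE 0.40, adjusted p = 0.0167) and by 1.30 in *Scnn1b*-Tg (SE 0.40, adjusted p = 0.0104) to PND 3. In WT PND 3 replicate 3, the third array high in skeletal muscle genes, *Cox8b* was the lowest of its group, and without WT PND 3 replicate 2 the WT change was 1.04 (adjusted p = 0.0627). Its fall of 1.56 to PND 42 in *Scnn1b*-Tg (SE 0.40, adjusted p = 0.00472) was −0.24 without the 2 muscle-rich arrays (adjusted p = 0.748). The part of muscle tissue in these values was not tested.

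*Cox7a1*, the heart and muscle form of subunit 7a, rose by 0.99 in WT and 1.12 in *Scnn1b*-Tg, and at PND 10 it stood at 6.06, 4.85 and 5.44 in WT and 5.90, 6.12 and 5.26 in *Scnn1b*-Tg, in the same order of arrays as *Cox8b* in *Scnn1b*-Tg. Its *Scnn1b*-Tg change to PND 42 was −0.78 (adjusted p = 0.00977), and −0.28 without the 2 muscle-rich arrays (adjusted p = 0.565). *Cox6a2*, the muscle form of subunit 6a, was dim, at 4.36 to 5.51 over all arrays, and its highest value was *Scnn1b*-Tg PND 10 replicate 1. *Cox8a*, the common form of subunit 8, changed by −0.03 and −0.05 to PND 3 and was the only common subunit that passed in neither genotype. *Cox7b2*, known from testis, rose late in WT, by 0.54 from PND 10 to PND 42 (SE 0.15, adjusted p = 0.011; 0.0511 and 0.0721 without PND 10 replicate 1 or 2), and by 0.13 in *Scnn1b*-Tg (SE 0.15, adjusted p = 0.573).

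**Figure D3:**
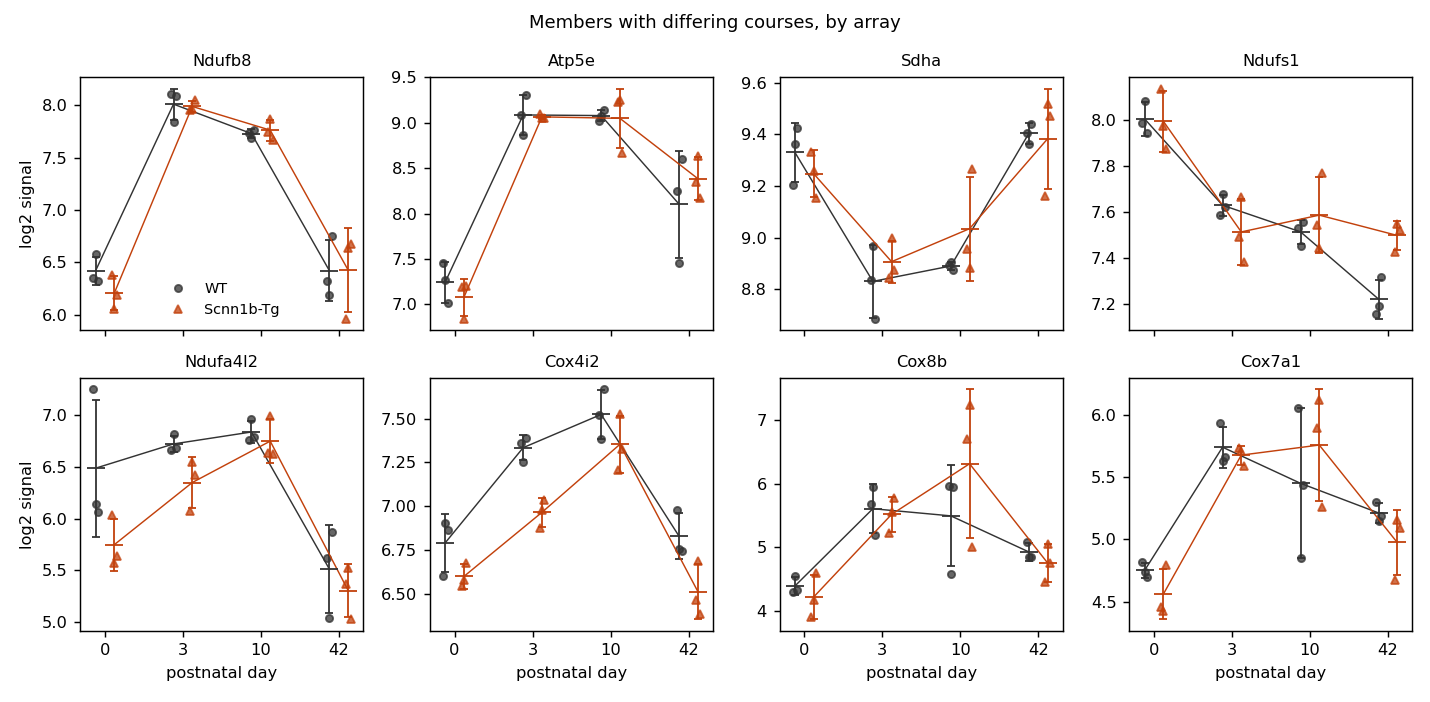
Log2 signal (vertical axis) of 8 members by postnatal day (horizontal axis) on each array, WT in grey circles and *Scnn1b*-Tg in orange triangles, with mean and SD of 3 arrays; each panel has its own scale. *Ndufb8* and *Atp5e* show the common course, *Sdha* and *Ndufs1* fell from PND 0 to PND 3, and *Cox8b* at PND 10 ranged from 4.57 to 5.96 in WT and from 4.996 to 7.24 in *Scnn1b*-Tg.

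Complex V, the ATP synthase, held both the highest rise and members that did not rise. *Atp5e*, the small epsilon subunit of the F1 part, was at 7.46, 7.26 and 7.01 in WT at PND 0, 9.09, 8.87 and 9.31 at PND 3, 9.02, 9.08 and 9.15 at PND 10, and 8.25, 7.46 and 8.60 at PND 42. Its adult replicate 2 equalled the highest newborn array and the other two lay above every newborn array. *Atp5e* rose by 1.84 in WT (SE 0.21, adjusted p = 5.75e-07) and by 1.99 in *Scnn1b*-Tg (SE 0.21, adjusted p = 1.79e-07). The alpha and beta subunits, which form the catalytic ring of F1, behaved differently. *Atp5a1* (alpha) was at 10.81, 10.90 and 10.85 in WT at PND 0 and 10.52, 10.75 and 10.54 at PND 3, a fall of 0.25 (SE 0.10, adjusted p = 0.0343), and changed by −0.14 in *Scnn1b*-Tg (adjusted p = 0.241). The WT fall no longer passed without WT PND 0 replicate 1 or with array medians subtracted. *Atp5b* (beta) changed by −0.06 in WT and −0.09 in *Scnn1b*-Tg, with neither passing.

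The c ring of ATP synthase is built from 1 protein encoded by 3 genes. *Atp5g1*, *Atp5g2* and *Atp5g3* rose by 0.51, 0.48 and 0.61 in WT and by 0.50, 0.68 and 0.58 in *Scnn1b*-Tg, all passing. They fell by 0.81, 0.65 and 0.57 in WT from PND 10 to PND 42, all passing, and by 0.89, 0.72 and 0.49 in *Scnn1b*-Tg. A second row of *Atp5g1* rose by 1.05 in WT and 1.05 in *Scnn1b*-Tg and was called where the brighter row was not. The 5 small membrane subunits of the enzyme (*Atp5j2*, *Atp5k*, *Atp5l*, *Atp5md* and *Atp5mpl*) all passed in both intervals and genotypes, with a WT median of 0.92 up and −0.99 down. Without the 2 muscle-rich arrays the later *Scnn1b*-Tg change of *Atp5k* was −0.58 (adjusted p = 0.0763) and that of *Atp5mpl* −0.64 (adjusted p = 0.118). The 6 rows of *Atp5l* rose by 0.92 to 1.01 in WT.

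**Figure D4:**
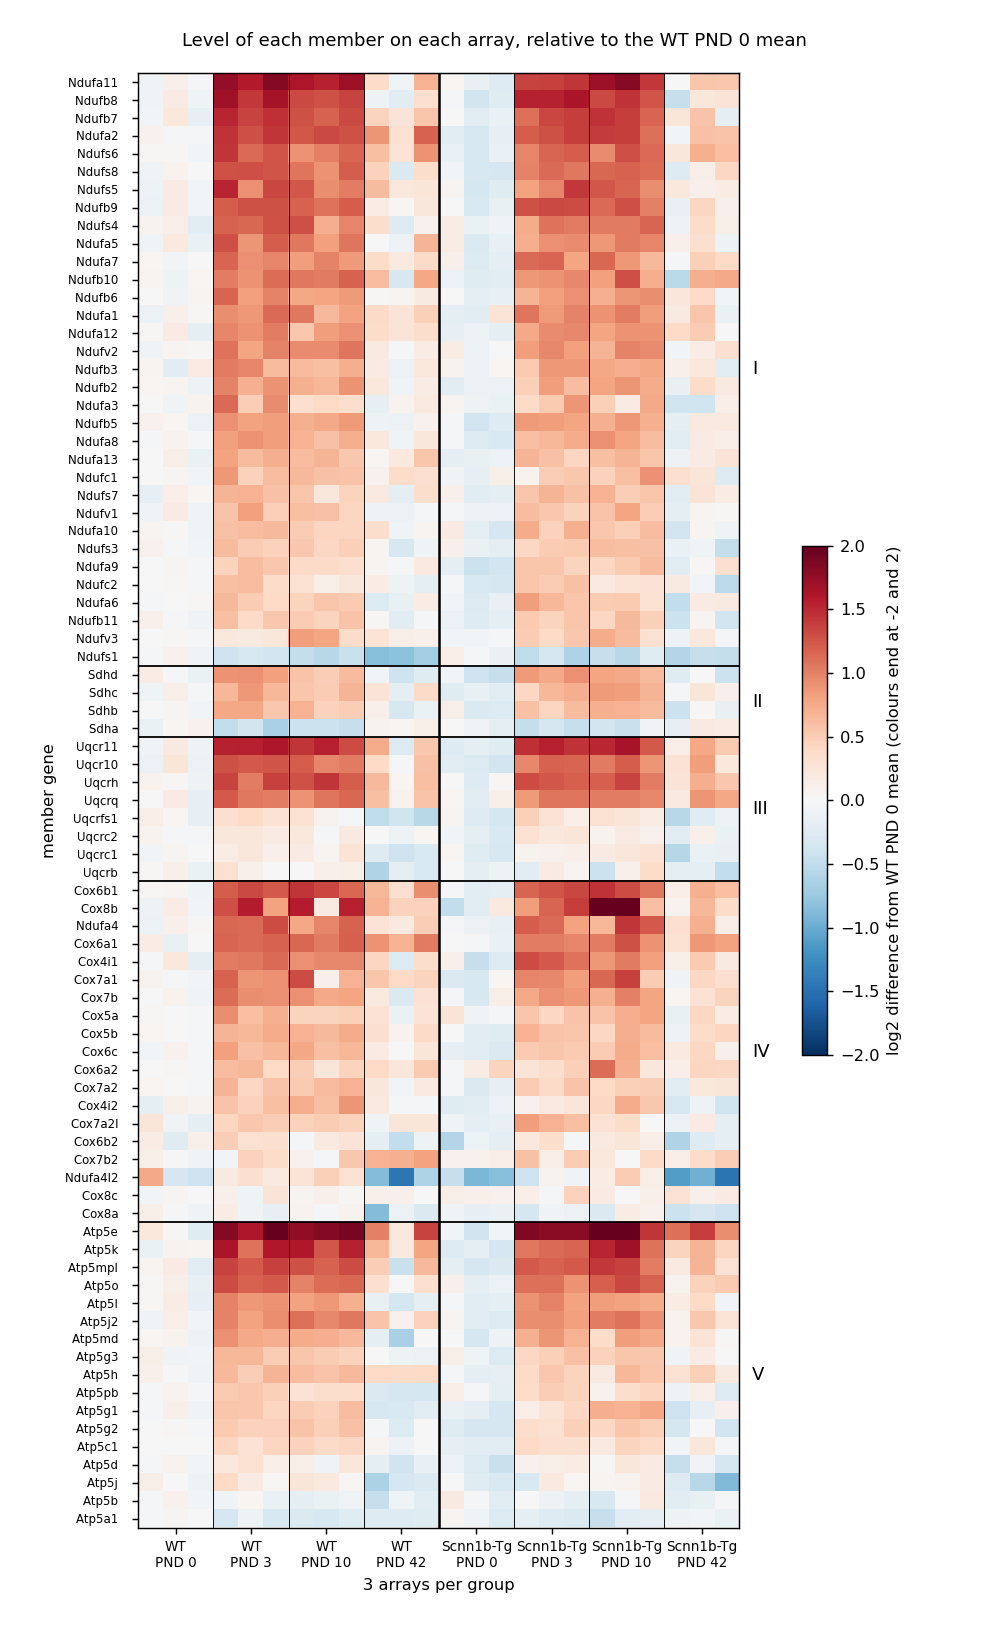
Each row is 1 of the 81 members and each column 1 of the 24 arrays, grouped by genotype and postnatal day; colour gives the log2 difference from that gene's WT PND 0 mean (red higher, blue lower), and rows are ordered within complexes I to V by their WT change to PND 3. The PND 3 and PND 10 columns are red for most rows, the rows of *Sdha* and *Ndufs1* are blue there, and the *Cox8b* row is unequal within the PND 10 groups.

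Over the 24 arrays, the level of each member was set beside the mean of all other members. The median Pearson r was 0.93, and 51 members had r above 0.9, with *Ndufa11* (0.99) and *Ndufb9* (0.99) the most alike. Below 0 were *Sdha* (−0.78), *Atp5a1* (−0.59), *Ndufs1* (−0.34) and *Atp5b* (−0.03), the genes of the large flavoprotein of complex II, the alpha and beta subunits of F1 and the largest subunit of complex I. Between 0 and 0.5 were *Cox8c* (0.04), *Cox7b2* (0.05), *Cox8a* (0.32) and *Uqcrb* (0.45). The points share the arrays and the age course, so these values describe likeness only. In the 16 genes with several rows, all rows had the same sign in both genotypes in the neonatal rise and in the later fall.

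*Scnn1b*-Tg and WT lungs were compared at each age for the question of whether the dry airway surface changes these genes. No member passed at any of the 4 ages in limma (0 of 81), and so none was called. Of all rows, 0.0138% were called in either direction in newborns, 0.0184% at PND 3, 0.151% at PND 10 and 0.34% in adults. The share of all rows that passed is not given here. Without *Scnn1b*-Tg PND 10 replicate 3, which leaves the 2 muscle-rich arrays, *Cox8b* was called higher at PND 10 (1.48, SE 0.32, adjusted p = 0.0489). At an unadjusted p of at most 0.05 there were 7, 3, 1 and 7 of the 81 members, with no count over all rows to set beside them. The lowest adjusted p was 0.796 for *Atp5g2* at PND 0, 0.426 for *Cox4i2* at PND 3, 0.565 for *Cox7a2l* at PND 10 and 0.102 for *Atp5l* at PND 42. The median SE of a difference was 0.13, so that differences well under 2-fold could go undetected with 3 pools per group.

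At PND 0, 76 of the 81 members (93.8%) were lower in *Scnn1b*-Tg, against 55.4% of all genes, with a median difference of −0.15 (all rows −0.02). In 19 of them all *Scnn1b*-Tg arrays lay below all WT arrays (7% of all rows). At PND 3, 66 members were lower (81.5%, against 49.6% of all genes) with a median of −0.10, and 14 did not overlap (5.91% of all rows). At PND 10, 35 members were lower (43.2%) with a median of 0.02, and at PND 42, 46 (56.8%) with −0.03. The members move together from array to array, so these counts of signs are not independent and carry no test. The whole-set means above show the same order at PND 0, with *Scnn1b*-Tg arrays at 7.79 to 7.95 and WT arrays at 7.94 to 8.05, which overlap. A lower group mean at PND 0 was not particular to the members. The mitochondrial ribosome was at 6.56 in *Scnn1b*-Tg against 6.651 in WT, and cytosolic ribosomal proteins were at 9.395 against 9.526. At PND 3 these sets were at 7.217 against 7.342 and at 9.996 against 9.984. At PND 0 same-numbered arrays deviated together (correlation of 0.153 to 0.299), but *Scnn1b*-Tg replicate 2 and WT replicate 3 also reached 0.26. The labels give no pairing beyond the number. The set mean was lower in *Scnn1b*-Tg within each of the 3 same-numbered pairs, and most other matchings of these arrays give the same order. With the replicate number as a block 0 members passed at PND 0 in limma (lowest adjusted p 0.757; 6 had an unadjusted p of at most 0.05).

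There were 14 members (17.3%, against 7.1% of all genes) with a lower mean in *Scnn1b*-Tg at every age, *Cox4i2* and *Ndufa4l2* among them. The *Cox4i2* levels at PND 3 were 6.88, 6.98 and 7.04 in *Scnn1b*-Tg and 7.36, 7.25 and 7.39 in WT, without overlap, a difference of −0.37 (SE 0.11, adjusted p = 0.426). At PND 42 they were 6.46, 6.69 and 6.38 against 6.98, 6.76 and 6.75, again without overlap, with −0.32 (SE 0.11, adjusted p = 0.271). *Atp5l*, a small membrane subunit of ATP synthase, was at 8.94, 9.20 and 8.74 in *Scnn1b*-Tg and 8.65, 8.45 and 8.60 in WT at PND 42, a difference of 0.40 (SE 0.11, adjusted p = 0.102). *Ndufa4l2* was lower by 0.74 at PND 0 (SE 0.24, adjusted p = 0.796), at 6.03, 5.57 and 5.64 against 7.25, 6.15 and 6.07, where the high WT array is the one that stood apart. Without that array the difference was −0.36 (SE 0.20, adjusted p = 1).

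**Figure D5:**
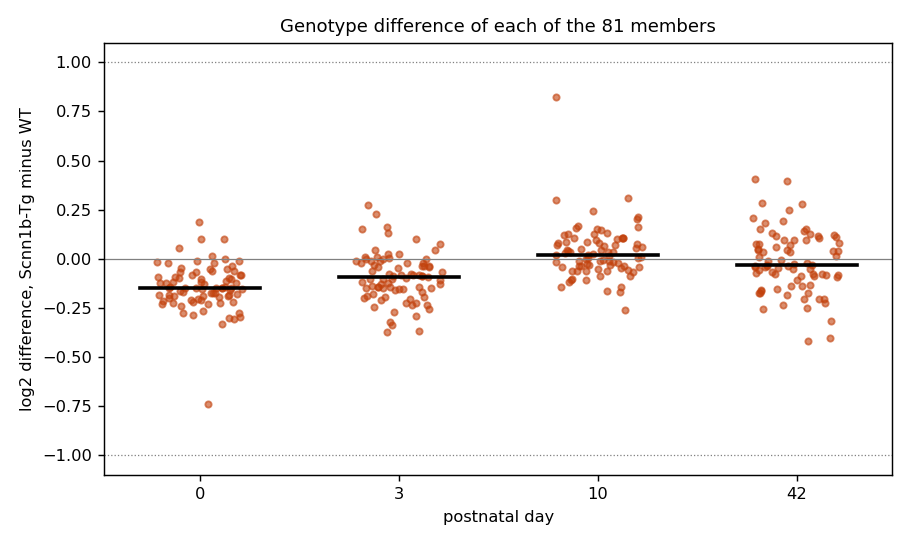
Log2 difference between *Scnn1b*-Tg and WT (vertical axis) of each of the 81 members at each postnatal day (horizontal axis); black bars are medians and dotted lines mark 2-fold. The medians were −0.15, −0.10, 0.02 and −0.03, no point lies beyond the dotted lines, and the highest point at PND 10 is *Cox8b* (0.82).

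Other gene groups of the mitochondrion were set beside the members by count and median. The 77 genes of the mitochondrial ribosome, which makes the subunits encoded by mitochondrial DNA, had a WT median of 0.72 from PND 0 to PND 3 with 16 called higher, and −0.60 from PND 10 to PND 42 with 8 called lower. Of 42 assembly factors 5 were called higher and 22 passed higher, with a median of 0.39. Among these *Uqcc2*, needed for complex III, rose by 1.89 in WT, and *Coa3*, needed for complex IV, by 1.61. Of 24 import genes (Tomm and Timm) 3 were called higher, with a median of 0.50. Of the 6 electron carriers and subunits named outside the symbol rule, 5 passed higher in WT, among them *Etfb* (1.14), *Ndufab1* (0.70), *Etfa* (0.63) and *Cycs* (0.66), while *Etfdh*, which hands electrons from fatty acid oxidation to ubiquinone, fell by 0.47.

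Counts for pathways that feed the chain and for regulators follow, to be read against the 21.7% of all rows that passed higher and 24.9% lower. Of 16 citric acid cycle genes, 3 passed higher and 6 lower in WT to PND 3, none was called, and the median was −0.09. *Dlst* and *Ogdh*, subunits of the same dehydrogenase, fell by 0.75 and 0.68, and *Idh3a* rose by 0.65. Of 13 fatty acid oxidation genes 3 passed higher and 4 lower, with a median of −0.06. Of 15 biogenesis regulators 1 passed higher and 7 lower in WT. *Ppargc1a* fell by 2.37 in WT (SE 0.34, adjusted p = 9.51e-06), with PND 0 arrays at 8.62, 6.74 and 6.30 and PND 3 arrays at 4.77, 5.05 and 4.73, and by 1.27 in *Scnn1b*-Tg (SE 0.34, adjusted p = 0.00451). Without WT PND 0 replicate 1 the WT change of *Ppargc1a* was −1.67 (SE 0.19, adjusted p = 9.63e-07). *Yy1* and *Gabpa*, whose motif letters are described above, fell by 0.69 and 0.70 in WT.

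Markers of other cells and processes moved over the same intervals. Among 58 cytosolic ribosomal protein genes 41 passed higher and 2 lower in WT to PND 3, with a median of 0.47, and the later median was −0.35. Of 7 genes of dividing cells, 3 were called higher in WT to PND 3, with a median of 0.87, and all 7 were called lower from PND 10 to PND 42, with a median of −1.68. In *Scnn1b*-Tg 1 of the 7 was called higher and all 7 lower, with medians of 0.39 and −1.85. Their mean per array was 5.47 to 6.03 in WT at PND 0, 5.79 to 7.04 at PND 3, 6.40 to 6.74 at PND 10 and 4.69 to 4.99 at PND 42. WT PND 3 replicate 2 was the low one at 5.79. That value lay within the range of the WT PND 0 arrays. The mean of the 81 members in the same array, 8.73, was the lowest of the WT PND 3 arrays (8.73 to 8.82). It lay above all WT PND 0 arrays (7.94 to 8.05). Of 12 cardiac muscle genes 4 passed higher and 3 lower in WT to PND 3, and of 11 skeletal muscle genes 2 passed higher. Of 10 brown fat genes 8 had a mean of at most 5 over all arrays, with the defining genes *Ucp1* at 3.35 to 4.23 and *Cidea* at 3.55 to 4.27 over all arrays. The part of these cells in the members' changes was not tested.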

How the data were processed

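Per the labels, the authors processed the arrays with RMA in Partek 6.5, which corrects background, normalizes by quantiles and summarises probes, and deposited log2 values for 35556 rows. RMA aims to make array distributions alike, yet array medians of the deposited values ranged from 4.79 to 5.00, so other scalings were tried. No row was filtered, and the probe to gene table named 1 gene for 21789 rows, several for 1621 and none for 12146. Groups came from the labels. Means per group (8 groups, 24 arrays, 16 residual degrees of freedom) were fitted with limma 3.58.1 in R 4.3.3 with empirical Bayes, and adjusted p-values are Benjamini-Hochberg over the 21789 rows of 1 gene. Contrasts were ages within genotype, genotypes within age, and their interactions. Named members were up to 8 with the largest called change per comparison and no overlap of groups, the largest opposite change, the isoform sets, the 4 Sdh genes, *Ndufb8*, members that alternatives moved and those least like the set; of other lists, up to 4 genes with the lowest p. Alternatives were other scalings, thresholds, rows, a replicate block and leaving out arrays. The fit was tested on simulated data. The number of arrays limits the precision. Samples are biological replicates per the labels, each a pool. Members and lists were chosen with earlier results of these data known.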

Additional observations from a re-analysis of the deposited data

Results flagged for a closer look

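In 7 members the genotypes differed in opposite directions at a pair of ages with no overlap of arrays at either age, or the change between ages went opposite ways. The share of all genes that meet this rule was not counted, so the 7 cannot be read as a trait of the members. With 3 arrays against 3, no overlap arises by chance in 10% of single comparisons. *Ndufv3* had an *Scnn1b*-Tg minus WT difference of −0.0506 at PND 0 and 0.2754 at PND 3. At PND 0 its nearest arrays were at 6.586 in *Scnn1b*-Tg and 6.588 in WT. *Atp5g1* had −0.2212 at PND 0, −0.2332 at PND 3 and 0.202 at PND 10. *Ndufa9* had −0.3338 at PND 0 and 0.156 at PND 10, and *Sdhc* had −0.2048 and 0.2122 at these ages. Between PND 3 and PND 10, *Atp5o* went from −0.2001 to 0.1517, *Cox5a* from −0.2367 to 0.2453 and *Cox7a2l* from 0.2272 to −0.2597. The change from PND 3 to PND 10 was greater in *Scnn1b*-Tg than in WT by 0.3518 for *Atp5o* and by 0.482 for *Cox5a*. None of these differences passed as an interaction in limma, where adjusted p ranged from 0.245 (*Ndufa9*) to 0.998 (*Ndufv3*).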

How the results depend on the processing

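In WT, calls from PND 0 to PND 3 were 39, all higher, with quantile normalization repeated and 39 with array medians subtracted. From PND 10 to PND 42 they were 3 and 4 under these settings, and 4 with the mean of a gene's rows. From PND 0 to PND 42 they were 5 and 3, all higher. In *Scnn1b*-Tg, repeated quantile normalization gave 4 calls from PND 10 to PND 42 and 9, all higher, from PND 0 to PND 42. By adjusted p alone the counts for PND 3 against 0, 10 against 3, 42 against 10 and 42 against 0 were 70, 1, 65 and 23 in WT and 72, 2, 68 and 30 in *Scnn1b*-Tg. At a 1.5-fold threshold, PND 3 against 0, 42 against 10 and 42 against 0 gave 52, 39 and 8 in WT and 56, 45 and 10 in *Scnn1b*-Tg. No share of all rows is given for the other scalings, the mean of a gene's rows or the 1.5-fold threshold. The same holds for the fits with a block or without some arrays. Counts under these settings cannot be read as a trait of the members.

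Leaving out 1 array at a time gave 24 to 31 calls between birth and PND 3 in WT and 27 to 31 in *Scnn1b*-Tg. From PND 3 to PND 10 it gave 0 to 0 and 0 to 1, and from PND 10 to PND 42 it gave 3 to 11 and 5 to 13. From PND 0 to PND 42 it gave 0 to 2 in WT (2 without PND 42 replicate 2, and 1 without PND 0 replicate 2 or 3 or PND 42 replicate 1 or 3) and 1 to 1 in *Scnn1b*-Tg. Between genotypes it gave 0 to 0 at PND 0, PND 3 and PND 42, and 0 to 1 at PND 10. Leaving out both muscle-rich arrays, chosen after seeing the data, gave 5 calls from PND 10 to PND 42 in *Scnn1b*-Tg.

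Of 8424 values of named members under the alternatives, 8192 kept their direction and their side of the threshold, 231 no longer passed and 1 reversed. These values belong to 234 results that had passed over all arrays. Many alternatives could not move the log2 change, such as leaving out an array of a group not compared. Much of this agreement was therefore fixed in advance. Counted by result, 55 of 234 no longer passed under at least 1 alternative. The reversed value was *Atp5g1* from PND 0 to PND 42 in WT, at 0.247 with quantile normalization repeated (limma adjusted p = 0.0643) against −0.28. The cause was not tested. The fit with the replicate number as a block gave 25 and 7 calls in WT and 30 and 7 in *Scnn1b*-Tg for PND 3 against 0 and PND 42 against 10, the same counts as without it. Every pair of same-numbered samples correlated over 0.1 in 2 of 14 comparisons (PND 3 against 0 in *Scnn1b*-Tg, and the genotypes at PND 0). In all 14 the labels give only a shared number.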

Other observations

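Rows annotated to several genes were left out of the members and are given here as values only. For the 3 rows shared by *Cox7c* and *Gm12338* the change from PND 0 to PND 3 was 0.57, 0.53 and 0.49 in WT and 0.66, 0.57 and 0.57 in *Scnn1b*-Tg. For the 2 rows shared by *Ndufb4* and *Ndufb4b* it was 1.18 and 1.38 in WT and 1.34 and 1.42 in *Scnn1b*-Tg. The row shared by *Ndufs5* and its pseudogene gave 0.66 in WT (limma adjusted p = 0.0836) and 0.93 in *Scnn1b*-Tg (adjusted p = 0.0157). The signal of such gene families cannot be assigned to 1 copy by these probes.

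Among 13 genes of the hypoxia response, 7 passed lower and 1 higher in WT between birth and PND 3, 4 were called lower, and the median was −0.64. In *Scnn1b*-Tg 5 passed lower and 2 higher, 2 were called lower, and the median was −0.17. Among 13 glycolysis genes 4 passed lower and 2 higher, 2 were called lower, and the median was −0.15, whereas in *Scnn1b*-Tg 3 passed lower and 4 higher, none was called, and the median was 0.13. The difference between genotypes was not tested. WT PND 0 replicate 1 was high in both lists, with means of 8.61 (glycolysis) and 7.75 (hypoxia response) against 8.13 and 8.12 and against 7.23 and 7.26 in the other WT newborn arrays. The 12 genes of coenzyme Q synthesis, which make the carrier between complexes I or II and III, had a median of 0.26, with 4 passing higher and none called.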
